A study of Homo sapiens with 24 samples.

Results

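The replication-dependent (canonical) histone genes encode the core histones H2A, H2B, H3 and H4 and the linker histone H1 that are made in bulk when DNA is copied. They were taken as every gene listed in both count tables whose symbol is H1-1 to H1-6, or H2AC, H2BC, H3C or H4C followed by a number, which gave 66 of the 28277 genes listed. Of these, 6 were H1, 16 H2A, 17 H2B, 13 H3 and 14 H4 genes. By RefSeq, 55 lay on chromosome 6 and 11 on chromosome 1.

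RNA sequencing was done on PEO1 and PEO4, established ovarian adenocarcinoma cell lines derived from the same patient before and after resistance to platinum chemotherapy. The A pair were untreated PEO1, which lacks functional BRCA2, and untreated PEO4, which has regained it; both carry the genotype WT in the labels. The B pair were PEO1 with genotype BRCA2+ (here PEO1 BRCA+, a line that the study describes as having regained BRCA2 by spontaneous reversion) and PEO4 (WT). Both B lines were taken untreated and after 2 or 6 h in 5 µM pyridostatin (PDS), a small molecule that binds and stabilises G-quadruplex (G4) structures in DNA and RNA. Each of the 8 conditions had 3 libraries, 24 in all, in one count table of 6 libraries (A pair) and one of 18 (B pair). The labels number the libraries without saying whether they came from separate cultures, so p-values measure only the spread between these libraries. Mean levels by condition were 113 to 331 CPM (read counts scaled to a common library size) for PAX8, 83.6 to 182 CPM for WT1 and 312 to 571 CPM for EPCAM, all markers of ovarian carcinoma, whereas SOX17 was at 0 to 0.197 CPM and MECOM ranged from 0.0103 CPM in A-pair PEO4 to 21.1 CPM in A-pair PEO1. Among markers of other cell types the leukocyte marker PTPRC was at most 0.0228 CPM and the T cell marker CD3E at 0, but the macrophage marker CD68 was at 24.9 to 72.4 CPM and the stromal collagen gene COL1A1 at 2.80 to 30.5 CPM.

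Replication-dependent histone genes lie in clusters and are transcribed mainly in S phase. Their mRNA is normally not polyadenylated. It ends after a short stem-loop in the 3′ end that is bound by SLBP, the stem-loop binding protein, and is degraded when DNA synthesis stops. Some of these genes can also give a longer, polyadenylated mRNA by reading past the stem-loop to a downstream poly(A) signal.

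The histone stem-loop (16 bases) was found after the stop codon of all 66 genes in hg38. There were 10 different versions, and the most common was shared by 38 genes. The versions of the genes on which the results turn are shown here with 5 bases on either side, the stem-loop in capitals:
H2BC12 (chr6:27146361-27146386, minus strand): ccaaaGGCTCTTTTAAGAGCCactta
H1-2 (chr6:26055739-26055764, minus strand): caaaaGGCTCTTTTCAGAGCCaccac
H2BC9 (chr6:26252050-26252075, plus strand): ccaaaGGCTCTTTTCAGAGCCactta
H2BC21 (chr1:149886183-149886208, minus strand): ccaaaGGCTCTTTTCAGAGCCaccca
H4C3 (chr6:26104312-26104337, plus strand): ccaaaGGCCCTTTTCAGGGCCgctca

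H1-2, H2BC9 and H2BC21 carried the same stem-loop. A poly(A) signal (AATAAA or ATTAAA) near an annotated transcript end was found for 15 of the 66 genes (22.7%), against 83.4% of other protein-coding genes. A transcript or gene span of over 1000 bases, here called a long form, was annotated for 15 genes. A poly(A) signal was found in 13 of the 15 genes with a long form (86.7%) and in 2 of the 51 without (3.92%). The long-form genes without a signal were H2BC12 and H3C4, which count as long by gene span. Their only transcripts in GENCODE have 495 and 503 bases. The RefSeq span of H2BC12 runs on past its stem-loop, and the end of that span was not searched for a signal. The long-form genes were H2AC1, H2AC6, H2BC4, H2BC5, H2BC6, H2BC12, H2BC15, H2BC18, H2BC21, H3C4, H3C6, H3C10, H4C8, H4C14 and H4C15. This grouping was set after the values were seen.

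Promoter sequences (RefSeq, GRCh38.p14) were found for 61 of the 66 genes. On either strand, CCAAT was present in 85.2% of them against 34.6% of all 35116 promoters of the same length, TATAAA in 67.2% against 11.5%, and the octamer ATTTGCAT in 42.6% against 1.77%. The octamer was in 82.4% of H2B and 73.3% of H2A promoters and in 0% of H1 and H4 promoters. A G4 motif was in 8.2% of histone promoters against 25% of all promoters. The 150 bases before the start of the 3 genes with the highest levels are shown, with the CCAAT box, the TATA box and the octamer (or their reverse complements) in capitals:
H2BC12 (chr6:27146859-27147008, minus strand): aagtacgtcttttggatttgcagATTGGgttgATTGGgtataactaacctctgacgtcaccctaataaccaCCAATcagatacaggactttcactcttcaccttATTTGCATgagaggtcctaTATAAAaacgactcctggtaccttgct
H1-2 (chr6:26056471-26056620, minus strand): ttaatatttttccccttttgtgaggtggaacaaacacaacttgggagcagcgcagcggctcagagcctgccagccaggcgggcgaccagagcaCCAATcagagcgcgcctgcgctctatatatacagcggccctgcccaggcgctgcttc
H2BC9 (chr6:26251464-26251613, plus strand): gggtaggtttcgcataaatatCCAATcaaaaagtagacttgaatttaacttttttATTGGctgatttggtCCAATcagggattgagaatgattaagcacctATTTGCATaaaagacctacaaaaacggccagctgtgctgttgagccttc

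The H2BC12 promoter carried all 3 motifs, H2BC9 had CCAAT and the octamer, and H1-2 had CCAAT alone. Only the exact string TATAAA was counted as the TATA box, so the TATATATA in the H1-2 sequence was not counted. These matches describe letters in a window and not bound sites.

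The histone genes were a small part of every library. The libraries of the A pair held 32528913 to 63882077 counts in genes, of which 737 to 2949 were in histone genes. In the B pair the untreated libraries held 18699929 to 22375644 gene counts and the PDS libraries 33260167 to 43713947, with 823 to 1410 and 777 to 1998 histone counts. The libraries of the A pair were made with a kit that selects polyadenylated RNA, as were those of the B pair by the study's methods, so the counts cannot be read as the amount of histone mRNA with a stem-loop end. Ribosomal RNA genes summed to 0.297 to 2.08 CPM of gene counts in the A pair, 2170 to 4735 in the untreated B libraries and 163 to 369 in the PDS libraries. Depth and ribosomal RNA thus moved with PDS in both B lines, and their part in any difference from untreated cells cannot be told apart from the treatment. Other genes of RNA without a poly(A) tail summed to 126 to 280 CPM in the A pair. In the B pair they summed to 3937.5 to 6576 CPM untreated and 3424 to 6581 CPM after PDS. The 2 pairs thus differed widely in such RNA, and its part in differences between the pairs was not tested.

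**Figure D1:**
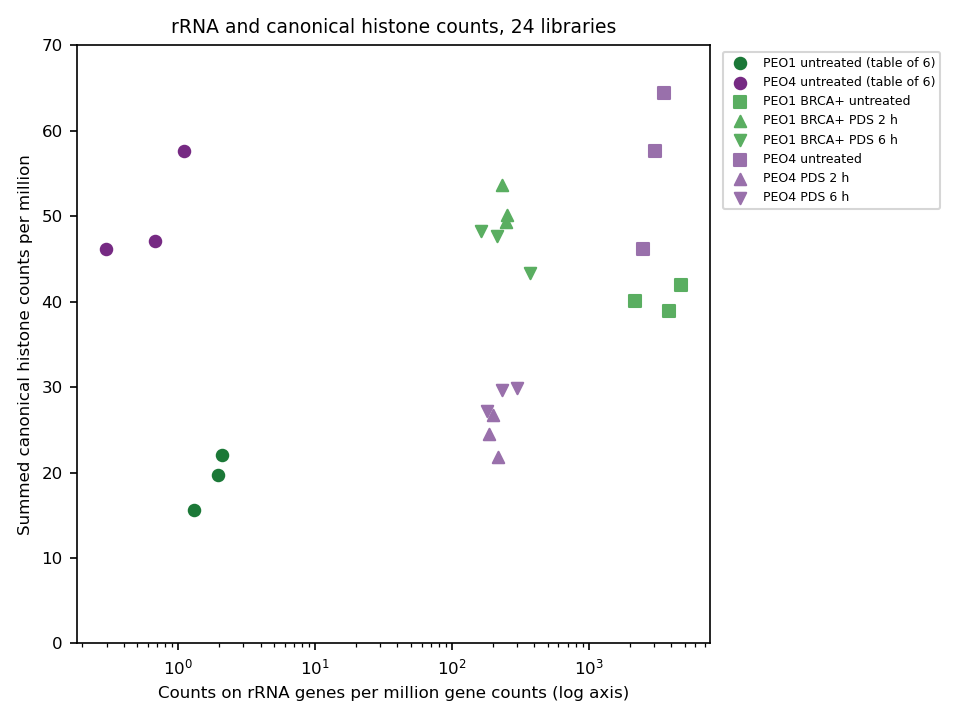
Counts on ribosomal RNA genes (horizontal log axis) against the summed histone counts (vertical axis), both as CPM of gene counts, in the 24 libraries, 1 point per library, with colour and symbol by condition. Untreated B libraries lie at 2170 to 4735 ribosomal CPM and PDS libraries at 163 to 369 in both lines, while the summed histone level of treated PEO4 lies below, and that of treated PEO1 BRCA+ above, its own untreated libraries.

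Summed over the 66 genes, the histone level in CPM of gene counts was 15.6, 19.7 and 22.02 in PEO1 of the A pair (mean 19.1 ± 3.23, SD, n = 3) and 46.2, 47.1 and 57.7 in PEO4 (50.3 ± 6.41). The groups did not overlap and the ratio of means was 2.63. In the B pair the sum was 40.3 ± 1.53 in untreated PEO1 BRCA+ and 56.1 ± 9.22 in untreated PEO4 (SD, n = 3). In PEO1 BRCA+ it was 51.04 ± 2.30 after 2 h and 46.5 ± 2.70 after 6 h of PDS. In PEO4 it was 24.3 ± 2.48 after 2 h and 28.96 ± 1.496 after 6 h, below every untreated PEO4 library. The full sum of PDS-treated libraries thus lay above that of untreated ones in PEO1 BRCA+ and below it in PEO4. Without H2BC12 and H1-2 the sum in PEO1 BRCA+ was 20.5 to 23.8 CPM untreated. It was 22.6 to 24.1 CPM at 2 h and 20.4 to 23.6 CPM at 6 h. In PEO4 this smaller sum was 21.5 to 31.01 CPM untreated, 15.46 to 19.97 at 2 h and 21.3 to 23.7 at 6 h. Without these genes, treated and untreated libraries thus overlapped, except in PEO4 at 2 h. In bulk RNA selected for poly(A), fewer cells in S phase, less histone RNA per cell and a smaller polyadenylated share of it cannot be told apart. Histone variants, which are not limited to S phase and come mostly from polyadenylated mRNA, summed to 2506 to 2563 CPM in PEO1 and 3397 to 3579 in PEO4 of the A pair. In PEO1 BRCA+ they summed to 2712 to 2771 CPM untreated, 2965 to 3122 at 2 h and 2855 to 2949 at 6 h. In B-pair PEO4 these values were 3548.5 to 3995, 3136 to 3293 and 3229 to 3246. The variant sum thus moved in the same directions as the canonical sum, so the directions of the sum were not particular to the canonical genes. In PEO4 it fell less after PDS, in proportion, than the canonical sum. By gene the variants were mixed. A positive log2 difference was seen in 6 of 10 in the A pair (median 0.08) and 9 of 12 in the untreated B pair (0.26). In PEO1 BRCA+ it was seen in 9 of 12 at 2 h (0.16) and 6 of 12 at 6 h (-0.05).

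**Figure D2:**
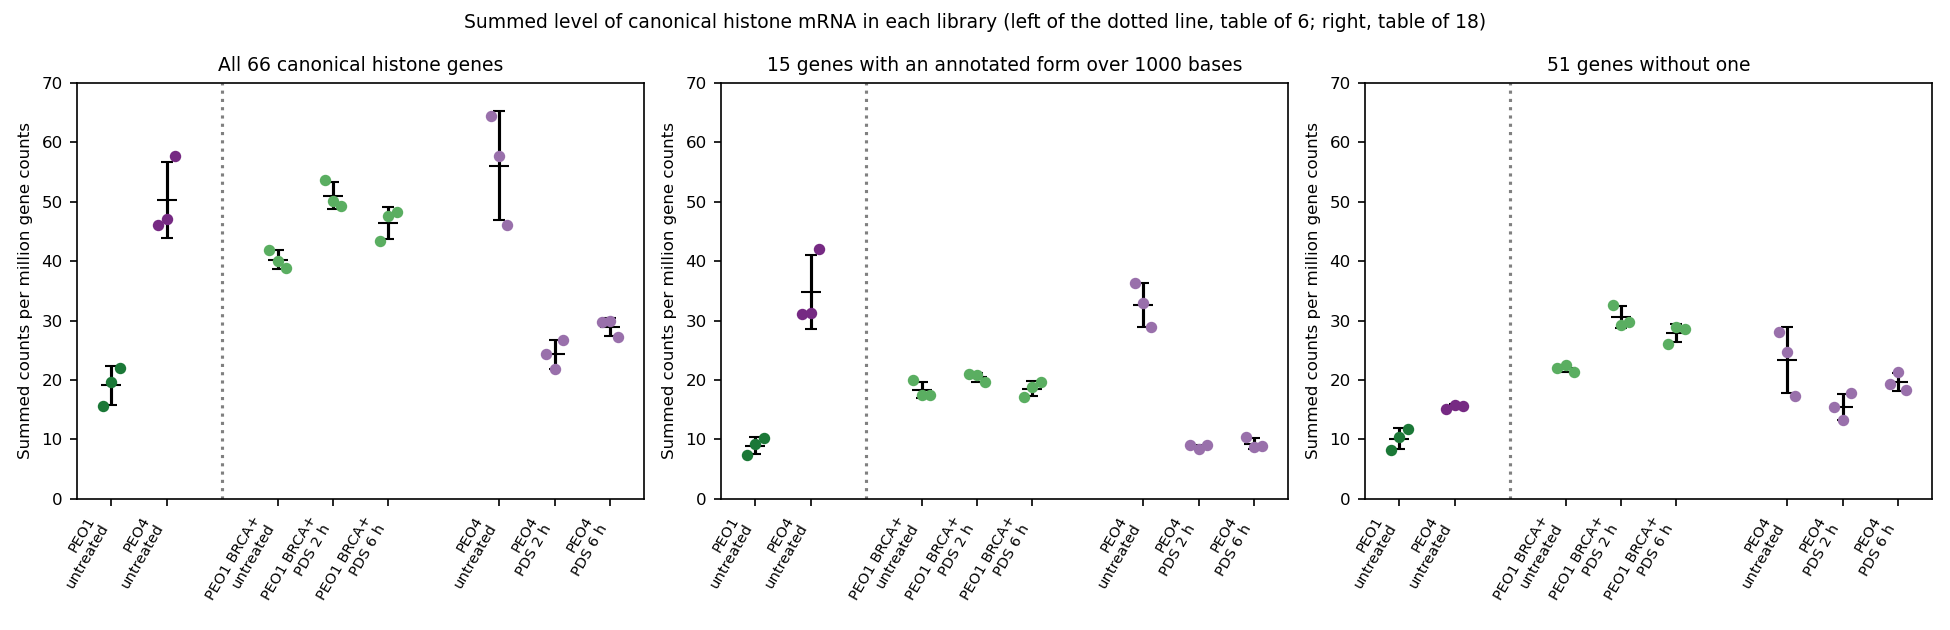
Summed histone level in CPM of gene counts in each library (points) for all 66 genes, those with a form over 1000 bases and the others, with mean ± SD (n = 3) for the 8 conditions. The sum is 19.1 in PEO1 and 50.3 in PEO4 of the A pair, and in the B pair the PDS conditions have means of 51.04 and 46.5 in PEO1 BRCA+ and of 24.3 and 28.96 in PEO4.

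The sum came mostly from few genes. Averaged over the 8 conditions, H2BC12 and H1-2 held 45.7% and the 12 highest genes 77.8% of the summed level. Only 7 genes reached 1 CPM and 21 were under 0.1 CPM. The other 54 genes lay between 0 and 0.504 CPM. H2BC12 and H1-2 made up 40.7 to 55.0% of the histone counts in each library, except in PDS-treated PEO4, where they made up 20.7 to 29.1%. H2B genes held 42.7 to 69.0% and H1 genes 8.57 to 35.2% of the histone counts over all libraries. Per 1000 bases of annotated exon, H2BC12 (21.9 CPM per kb) and H1-2 (9.83) again led, followed by H2BC9 (6.87), whereas H2BC21 dropped from rank 4 to rank 9 (0.960). A longer form of H2BC12 is not in the annotation used for lengths, so its value per kb is uncertain.

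H2BC12 (chr6:27138293-27146858, minus strand) encodes a core histone H2B and had the highest level of the 66 genes. Its levels were 3.97, 5.50 and 6.43 CPM in PEO1 and 13.1, 16.1 and 18.1 CPM in PEO4 of the A pair. In PEO1 BRCA+ they were 12.4, 8.47 and 10.1 CPM untreated, 14.9, 14.7 and 13.1 CPM after 2 h and 11.7, 12.6 and 12.5 CPM after 6 h. In B-pair PEO4 they were 19.7, 19.1 and 16.1 CPM untreated, 5.53, 5.10 and 5.54 CPM after 2 h and 5.65, 5.00 and 5.06 CPM after 6 h. Every untreated PEO4 library was above every untreated PEO1 library of its pair, and all PDS-treated PEO4 libraries were below all untreated B libraries.

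H1-2 (chr6:26055740-26056470, minus strand) encodes a linker histone, which binds the DNA between nucleosomes, and has no annotated long form. Its levels were 2.64, 3.10 and 4.62 CPM in PEO1 and 6.67, 8.05 and 7.84 CPM in PEO4 of the A pair. In PEO1 BRCA+ they were 7.28, 6.61 and 7.29 CPM untreated, 16.02, 13.7 and 13.99 CPM after 2 h and 12.04, 12.6 and 13.2 CPM after 6 h. In B-pair PEO4 they were 11.99, 10.2 and 6.496 CPM untreated, 1.28, 1.30 and 1.49 CPM after 2 h and 1.43, 1.46 and 1.14 CPM after 6 h. The gene was thus high in treated PEO1 BRCA+ and low in treated PEO4, with no overlap between treated and untreated libraries of either line.

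H2BC9 (chr6:26251614-26252075, plus strand), another H2B gene, went the other way in PEO4. Its levels there were 2.598, 2.71 and 1.66 CPM untreated, 5.53, 4.76 and 7.71 CPM after 2 h and 6.58, 7.66 and 5.45 CPM after 6 h. In PEO1 BRCA+ they were 1.53, 2.11 and 1.54 CPM untreated, 2.52, 3.05 and 2.48 CPM after 2 h and 2.79, 2.91 and 2.85 CPM after 6 h. In the A pair PEO1 had 1.78, 1.71 and 2.25 CPM and PEO4 0.986, 1.87 and 1.13 CPM, and these groups overlapped. H2BC9 overlaps annotated genes that have no symbol, as do H2BC5, H2AC6, H1-4, H2BC8 and H3C4 among the 12 highest genes, so their reads may be shared.

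H2BC21, H2BC5 and H2AC6 have long forms and were the highest of the remaining core histone genes in untreated PEO4. H2BC21 (chr1:149884459-149886682, minus strand), one of the H2B genes of the chromosome 1 cluster, had 0.878, 0.267 and 1.09 CPM in PEO1 and 6.98, 5.96 and 9.24 CPM in PEO4 of the A pair. In the B pair it had 1.25, 2.19 and 1.89 CPM in untreated PEO1 BRCA+ and 5.46, 4.12 and 2.72 CPM in untreated PEO4. After PDS, PEO4 had 0.583, 0.736 and 0.480 CPM at 2 h and 0.572, 0.488 and 0.389 CPM at 6 h. Treated PEO1 BRCA+ had 0.787, 0.853 and 1.10 CPM at 2 h and 0.759, 1.09 and 1.38 CPM at 6 h, so H2BC21 did not follow H1-2 there.

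H2BC5, an H2B gene, had 0.962, 1.36 and 0.714 CPM in PEO1 and 5.16, 5.10 and 7.87 CPM in PEO4 of the A pair. In the B pair it had 0.958, 0.785 and 1.14 CPM in untreated PEO1 BRCA+, 1.90, 3.11 and 2.17 CPM in untreated PEO4, and 0.917, 0.566 and 1.13 CPM in PEO4 after 2 h. After 6 h PEO4 had 0.882, 1.04 and 1.05 CPM, within the range of untreated PEO1 BRCA+. H2AC6, an H2A gene, had 0.251, 0.480 and 0.733 CPM in PEO1 and 2.604, 1.99 and 4.07 CPM in PEO4 of the A pair. In the B pair H2AC6 had 0.719, 0.702 and 0.527 CPM in untreated PEO1 BRCA+, 2.47, 1.46 and 2.07 CPM in untreated PEO4, and 0.389, 0.396 and 0.456 CPM in PEO4 after 2 h. At 6 h it had 0.715, 0.549 and 0.359 CPM. In treated PEO1 BRCA+, H2BC5 had 1.76, 1.47 and 1.37 CPM at 2 h and 1.36, 1.36 and 1.29 CPM at 6 h. H2AC6 had 1.10, 1.37 and 1.13 CPM at 2 h and 1.52, 1.0006 and 1.32 CPM at 6 h there. For both genes all untreated PEO4 libraries were above all untreated PEO1 libraries of the same pair.

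H4C3 (chr6:26103933-26104337, plus strand) encodes the core histone H4 and lies inside the span of H2BC4, so the split of reads between them is uncertain. It had 0.303, 0 and 0.0921 CPM in untreated B-pair PEO4 (7, 0 and 2 counts), 1.47, 1.19 and 1.34 CPM after 2 h and 1.53, 0.885 and 1.08 CPM after 6 h. In PEO1 BRCA+ it had 0.288, 0.248 and 0.220 CPM untreated, 0.724, 0.931 and 0.776 CPM after 2 h and 0.651, 1.06 and 0.646 CPM after 6 h. H4C3 was thus higher after PDS in every library of both lines. In the A pair it had 0.627, 0.480 and 0.507 CPM in PEO1 and 0.647, 0.199 and 0.0918 CPM in PEO4.

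Of the linker histone genes H1-4 and H1-5, H1-5 had 0.192, 0.620 and 0.527 CPM in untreated PEO1 BRCA+ and 1.76, 0.750 and 1.22 CPM after 2 h. In B-pair PEO4 H1-5 had 0.520, 0.452 and 0.230 CPM untreated, 0.500, 0.453 and 0.192 CPM after 2 h and 0.739, 1.04 and 0.868 CPM after 6 h. H1-4 had 0.736, 0.502 and 0.369 CPM in untreated B-pair PEO4, 0.222, 0.198 and 0.336 CPM after 2 h and 0.739, 0.610 and 0.748 CPM after 6 h. Both genes thus stood higher at 6 h than at 2 h in PEO4. After 6 h in PEO1 BRCA+, H1-5 had 0.786, 1.18 and 0.910 CPM. H1-4 in PEO1 BRCA+ had 0.815, 0.661 and 1.10 CPM untreated, 1.16, 0.776 and 1.22 CPM after 2 h and 0.678, 0.970 and 1.06 CPM after 6 h, and these conditions overlapped. In the A pair H1-5 had 0.125, 0.160 and 0.301 CPM in PEO1 and 0.154, 0.113 and 0.490 CPM in PEO4. H1-4 had 0.209, 0.320 and 0.263 CPM in PEO1 and 0.247, 0.0284 and 0.0612 CPM in PEO4 of that pair.

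H2AC20, H2BC8 and H3C4, which encode H2A, H2B and H3, completed the 12 highest genes. H2AC20 had 0.837, 1.07 and 0.639 CPM in PEO1 and 0.709, 0.397 and 0.980 CPM in PEO4 of the A pair. In PEO1 BRCA+ it had 1.58, 1.86 and 1.67 CPM untreated, 1.42, 1.40 and 1.58 CPM after 2 h and 1.49, 2.21 and 1.44 CPM after 6 h. In B-pair PEO4 it had 0.779, 1.46 and 1.0135 CPM untreated, 1.22, 1.05 and 1.03 CPM after 2 h and 0.882, 1.37 and 1.59 CPM after 6 h. Treated and untreated libraries of PEO4 overlapped for H2AC20, unlike for H1-2. H2BC8 had 0.251, 0.320 and 0.188 CPM in PEO1 and 1.09, 1.67 and 1.10 CPM in PEO4 of the A pair. In PEO1 BRCA+ H2BC8 had 0.335, 0.785 and 0.527 CPM untreated, 1.10, 0.776 and 0.537 CPM after 2 h and 0.624, 0.879 and 0.587 CPM after 6 h. In B-pair PEO4 H2BC8 had 0.952, 0.703 and 0.553 CPM untreated, 0.333, 0.396 and 0.480 CPM after 2 h and 0.549, 0.885 and 0.389 CPM after 6 h. The PEO4 libraries at 2 h were below the untreated ones, and those at 6 h overlapped with them. H3C4 had 0.167, 0.267 and 0.188 CPM in PEO1 and 0.493, 0.170 and 0.337 CPM in PEO4 of the A pair. In PEO1 BRCA+ H3C4 had 0.671, 0.578 and 0.483 CPM untreated, 0.724, 0.543 and 0.447 CPM after 2 h and 0.651, 0.970 and 0.734 CPM after 6 h. In B-pair PEO4 H3C4 had 1.30, 0.854 and 0.645 CPM untreated, 0.389, 0.566 and 0.336 CPM after 2 h and 0.739, 0.305 and 0.449 CPM after 6 h. H3C4 shares 95.5% of its 150-base stretches with other genes, so its counts are uncertain. H2AC18 and H2AC19, and H4C14 and H4C15, had identical counts in every library and are near-identical copies.

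**Figure D3:**
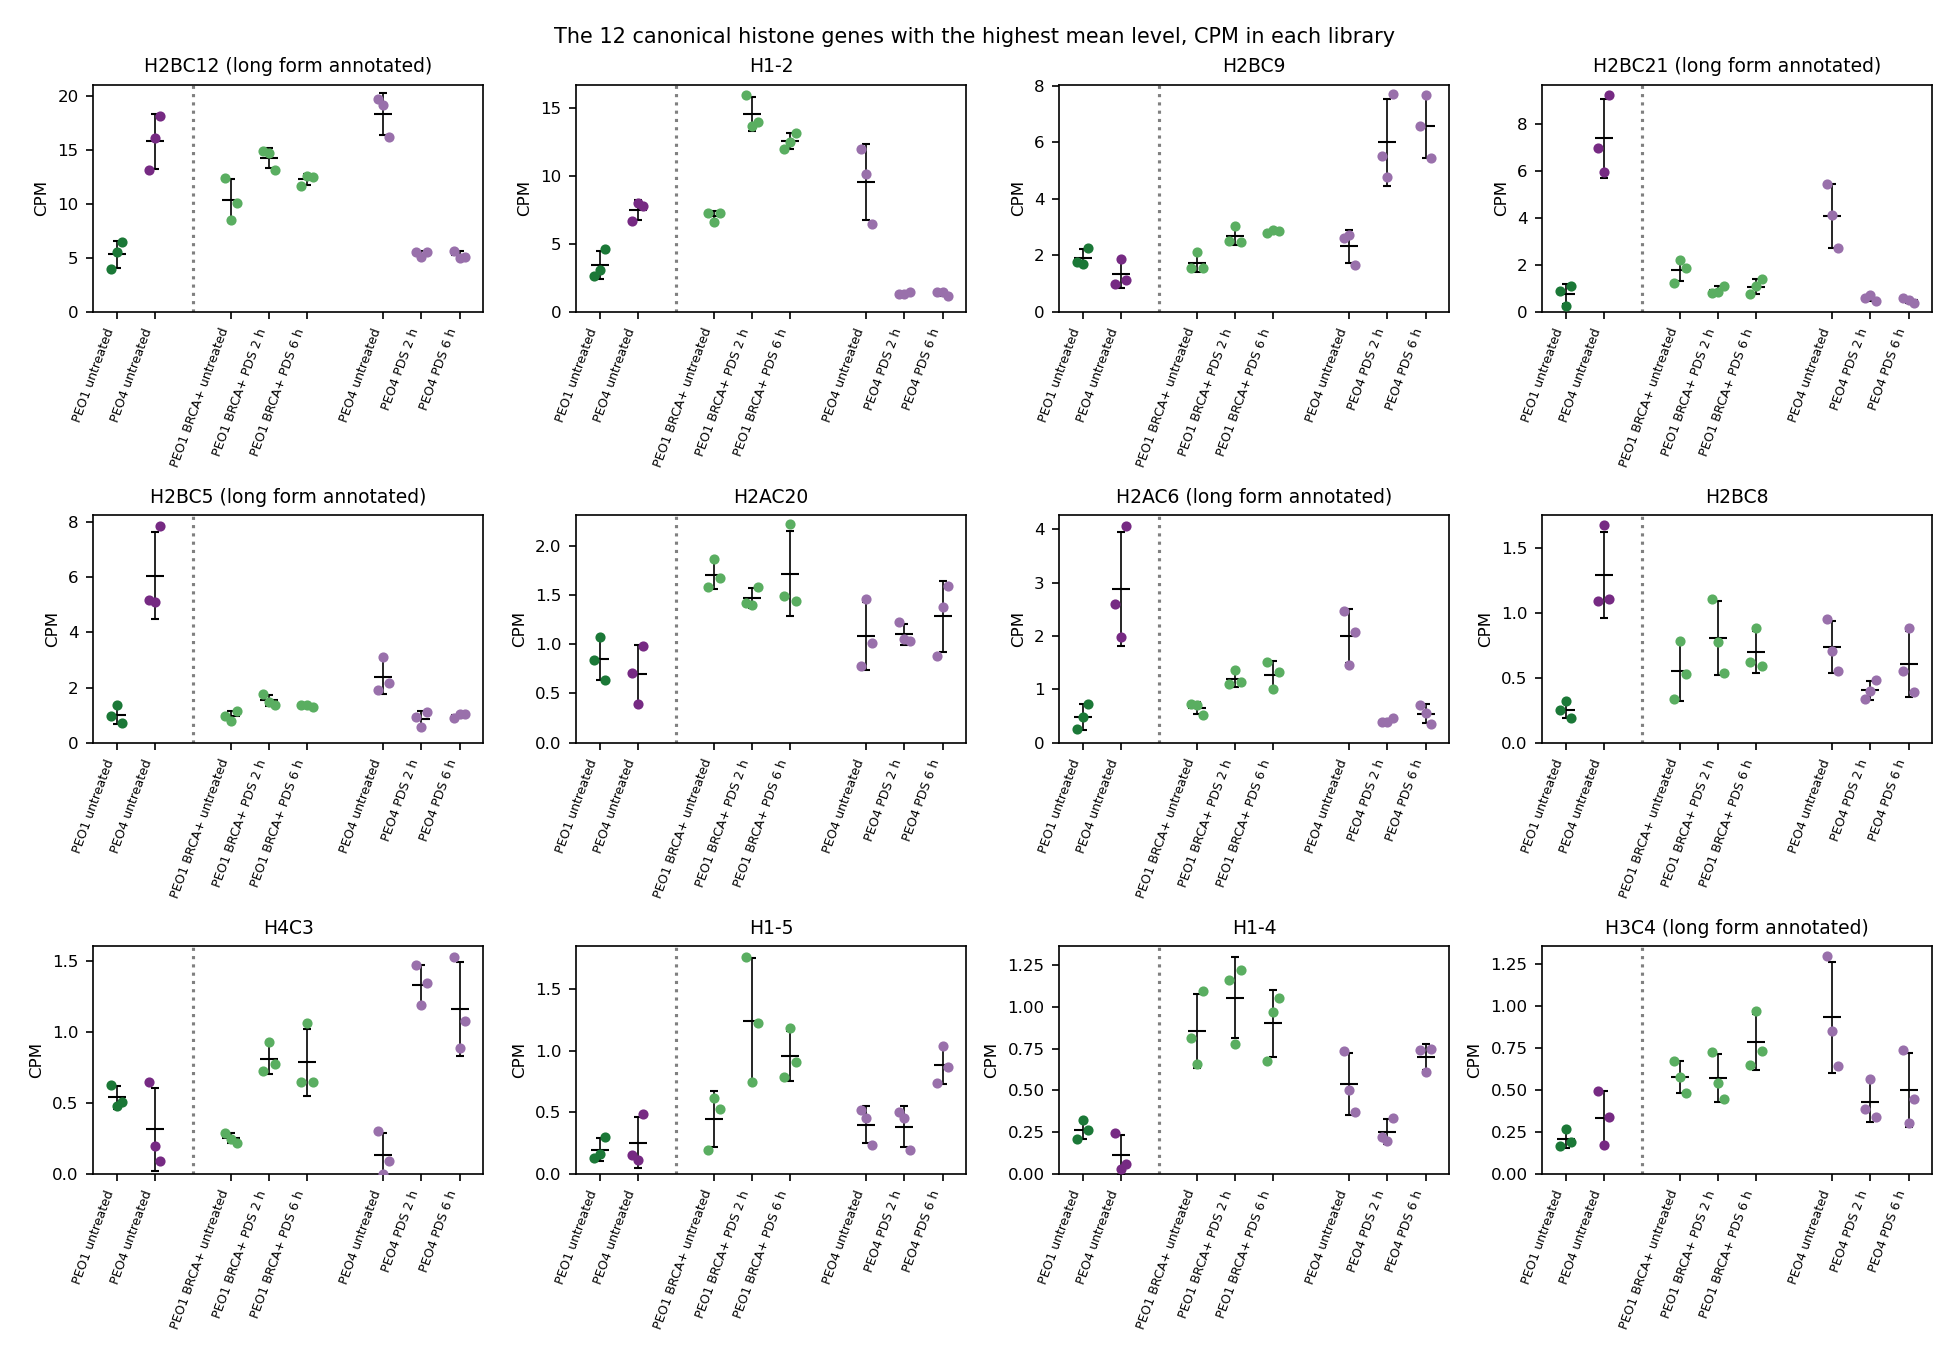
CPM in each of the 24 libraries (points) with mean ± SD (n = 3) by condition for the histone genes with the highest mean level. H2BC12 and H1-2 lead in most libraries; in PDS-treated PEO4, H1-2 lies between 1.14 and 1.49 CPM and H2BC9 between 4.76 and 7.71 CPM.

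Differences were tested by the quasi-likelihood test of edgeR, with p-values adjusted by Benjamini-Hochberg across every gene tested, and a gene was called at an adjusted p under 0.05 and a log2 fold change beyond 1. After the filter on low counts, 19 of the 66 genes were tested in the A pair and 37 in the B pair, and 29 were tested in neither. Genes with low counts in all but one condition can pass the filter through that condition, so the counts given describe the genes tested and not all 66. In the A pair, 9 of 19 genes were higher in PEO4 than in PEO1 and 0 were lower, against 12.6% and 13.1% of all 15882 genes tested. H2BC21 differed by 3.25 ± 0.360 (log2 fold change ± SE, adjusted p = 1.7e-05). H2BC5 differed by 2.59 ± 0.274 (adjusted p = 3.9e-06) and H2AC6 by 2.54 ± 0.395 (adjusted p = 0.00012). The other genes called were H2BC8 (2.35), H2BC12 (1.57), H1-2 (1.11), H2BC4 (1.08), H3C10 and H3C6. H1-2 lost its call without PEO1 replicate 1 (0.95). H3C10 had 7, 2 and 0 counts in PEO1 and 27, 16 and 15 in PEO4. H3C6 had 0, 9 and 2 against 24, 16 and 21. Both could pass the filter only through PEO4, and their PEO1 counts are too few to give a fold. H2BC8 had 12, 12 and 10 counts in PEO1 and 71, 59 and 36 in PEO4, and it too passed only with PEO4 libraries. All of these genes are among the 9 called. H3C10 and H3C6 are among the long-form genes described next and H2BC8 among the others, so those counts partly follow from the filter. Of the genes with a long form, 7 of 10 were higher in PEO4, with a median log2 difference of 2.03, and of those without, 2 of 9, with a median of 0.69. The median over all genes tested was -0.01.

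Fewer genes were called in the untreated B pair, where 37 genes were tested against 19 in the A pair. In untreated PEO4 against untreated PEO1 BRCA+, 3 of 37 genes were higher and 2 lower, against 12.2% and 12.6% of all 17020 genes tested, so the shares called did not stand above the background. The count was 8 when either PEO4 replicate 1 or replicate 2 was left out. H2AC6 (1.63 ± 0.286, adjusted p = 2e-05), H2BC5 (1.31 ± 0.256, adjusted p = 7.7e-05) and H2BC21 (1.20 ± 0.256, adjusted p = 0.00021) were higher, and these 3 were also higher in PEO4 of the A pair. Without PEO4 replicate 1 the value for H2BC21 was 0.93 and its call was lost. H4C6 (-1.69, from 1, 4 and 1 counts in PEO4) and H2BC18 (-1.26) were lower. H2BC12 stood at 0.84 ± 0.111 (adjusted p = 3.4e-07), below the fold threshold, and the median over the 37 genes was 0.06. The 2 untreated comparisons use separate tables and PEO1 lines, and the difference between them was not tested.

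**Figure D4:**
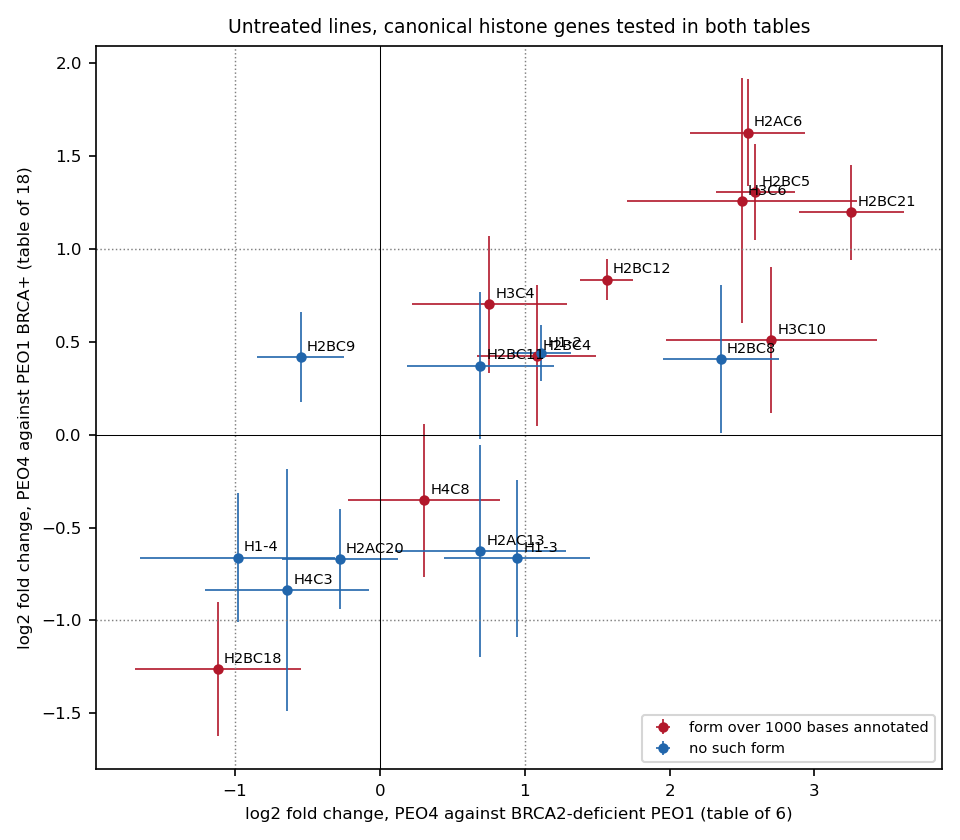
Log2 fold change of untreated PEO4 over untreated PEO1 in the A pair (horizontal axis) and over PEO1 BRCA+ in the B pair (vertical axis) for the 19 genes tested in both, with bars for the SE of the fit. H2BC21, H2BC5 and H2AC6 lie beyond 1 on both axes; H2BC21 is at 3.25 and 1.20.

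In PEO1 BRCA+, PDS left most of the genes tested without a call. After 2 h, 4 of 37 genes were higher and 1 lower, against 1.18% and 6.39% of all genes tested. H3C12, an H3 gene, rose by 2.01 ± 0.469 (adjusted p = 0.00086), H4C3 by 1.68 ± 0.430 (adjusted p = 0.002), H1-5 by 1.43 ± 0.395 (adjusted p = 0.0038) and H1-2 by 1.05 ± 0.141 (adjusted p = 1.2e-06) on the log2 scale. H2BC18 fell by 1.03. The call for H1-2 was lost without the first 2 h library (0.98) and when counts were scaled by library totals (0.90) or by the upper quartile (0.97). After 6 h, 3 genes were higher and 0 lower, against 1.29% and 6.83%, namely H4C3 (1.63), H3C12 (1.51) and H1-5 (1.07), and H1-2 stood at 0.84 ± 0.142. The H1-5 call was lost under scaling by library totals (0.92) or the upper quartile (0.98), without untreated replicate 1 (0.74) and without the second 6 h library (0.90). The count at 6 h was 6 without untreated replicate 3. H3C12 overlaps H2AC17, and H2BC18 shares 27.4% of its 150-base stretches with other genes, so their counts are less certain. Between 6 h and 2 h, 0 genes were higher and 0 lower by edgeR and by DESeq2, against 0.0705% and 0.0999%, with 1 gene at an unadjusted p under 0.05.

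PEO4 gave more calls after PDS. After 2 h, 14 of 37 genes were lower and 2 higher than in untreated PEO4 (37.8% and 5.41%), against 11% and 6.4% of all genes tested. The share higher thus did not stand above the background. H1-2 fell by 2.81 ± 0.174 on the log2 scale (adjusted p = 9.4e-13), H2BC21 fell by 2.78 ± 0.278 (adjusted p = 4.2e-09) and H2AC6 fell by 2.26 ± 0.281 (adjusted p = 1.4e-07). H2BC12 fell by 1.76 ± 0.113 (adjusted p = 1.6e-12) and H2BC5 fell by 1.43 ± 0.239 (adjusted p = 1.2e-05). Markers of immune, endothelial and stromal cells moved as well: 4 of the 7 tested were lower in PEO4 at each PDS time and 4 were higher in untreated PEO4 than in PEO1 BRCA+. Of all genes tested, 11% and 16.3% were lower in PEO4 at 2 h and 6 h, and 12.2% were higher in untreated PEO4. The summed level of all 14 markers was 73.6 to 78.9 CPM in untreated PEO4, 80.8 to 90.2 CPM at 2 h and 74.5 to 83.1 CPM at 6 h. CD68 made up most of it, while PTPRC and CD3E were at or near 0. Their part in the result was not tested. Of the decrease in the summed level of PEO4, 73.0% at 2 h and 86.5% at 6 h came from H2BC12 and H1-2 together. The other lower genes were H2AC7 (-2.63, from 0, 3 and 6 counts at 2 h), H2BC15 (-1.61), H4C8 (-1.59), H2AC8 (-1.36), H3C10 (-1.35), H2BC18 (-1.28), H3C4 (-1.13), H1-4 (-1.07) and H3C6, which was at least 3.96-fold lower against a floor of 3 counts per library. H4C3 rose by 3.23 ± 0.458 (adjusted p = 1.1e-06) and H2BC9 by 1.37 ± 0.197 (adjusted p = 1.3e-06). Without untreated PEO4 replicate 1 the value for H4C3 was 4.69, and without replicate 2 it was 2.71. H2AC7 shares 79.5% of its 150-base stretches with another gene, so its counts are uncertain. The calls for H1-4 (-0.75) and H3C4 (-0.80) were lost without untreated PEO4 replicate 1. H1-4 also lost its call without the first (-0.98) or second (-0.92) 2 h library, and H3C4 without the third (-0.97).

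After 6 h in PEO4, 8 of 37 genes were lower and 8 higher (21.6% each), against 16.3% and 6.26% of all genes tested. The share lower thus stood little above the background. H2BC21 fell by 3.06 ± 0.289 (adjusted p = 1e-09), H1-2 fell by 2.82 ± 0.176 (adjusted p = 7e-13) and H2AC6 fell by 1.86 ± 0.271 (adjusted p = 1.3e-06). H2BC12 (-1.80), H2AC7 (-1.60), H2AC17 (-1.41) and H2BC5 (-1.27) were also lower, as was H3C6, which had 10, 3 and 8 counts untreated and 2, 4 and 2 at 6 h, too few to give the size of the fold. H4C3 rose by 3.05 ± 0.467 (adjusted p = 2.7e-06) and H2BC9 by 1.50 ± 0.197 (adjusted p = 2.6e-07). Without untreated PEO4 replicate 1 the value for H4C3 was 4.51, and without replicate 2 it was 2.54. H4C5 (1.58) and H1-5 (1.12) were higher as well, and H2BC10 was at least 2.42-fold higher against the same floor. H3C12, H3C7 and H4C6 were also called higher, but their untreated counts were too few to give the size of the fold. H3C12 had 6, 0 and 1 counts untreated and 33, 21 and 21 at 6 h (adjusted p = 0.00023). H3C7 had 1, 6 and 1 untreated and 21, 17 and 10 at 6 h, and H4C6 had 1, 4 and 1 untreated and 14, 14 and 8 at 6 h. The call for H1-5 was lost when counts were scaled by library totals (0.96), without untreated replicate 3 (0.84) and without the second 6 h library. At both times 7 genes were lower and 2 (H4C3 and H2BC9) were higher. Both comparisons use the same untreated libraries, and the share of all genes called at both times was not taken, so these counts are a description only.

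Genes with a long form are described here beside those without, and the difference between these groups was not tested. At 2 h 10 of the 12 tested genes with a long form were lower in PEO4 and 0 higher, with a median log2 change of -1.51, and of the 25 without, 4 were lower and 2 higher (median -0.30). At 6 h the counts were 5 lower and 0 higher of 12 (median -0.89), and 3 lower and 8 higher of 25 (median 0.24). Of all genes tested, 11% were lower and 6.4% higher at 2 h (median 0), and 16.3% were lower and 6.26% higher at 6 h. The summed level of the long-form genes was 32.7 CPM of gene counts in untreated PEO4, 8.83 after 2 h and 9.32 after 6 h, and that of the others was 23.4, 15.5 and 19.6. H2BC12, for which only a transcript of 495 bases was searched and no poly(A) signal found, was the highest long-form gene. Its TMM-scaled levels there were 16.1 to 19.7, 5.10 to 5.54 and 5.00 to 5.65 CPM. Not every gene in the long-form sum therefore had a poly(A) signal found. The 4 lower genes without a long form at 2 h were H1-2, H2AC7, H2AC8 and H1-4. The long-form genes held 56.3 to 62.6% of the histone counts in untreated PEO4, 33.7 to 38.9% at 2 h and 29.0 to 34.8% at 6 h. In PEO1 BRCA+ they held 43.7 to 47.6%, 39.2 to 41.6% and 39.5 to 40.7%.

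**Figure D5:**
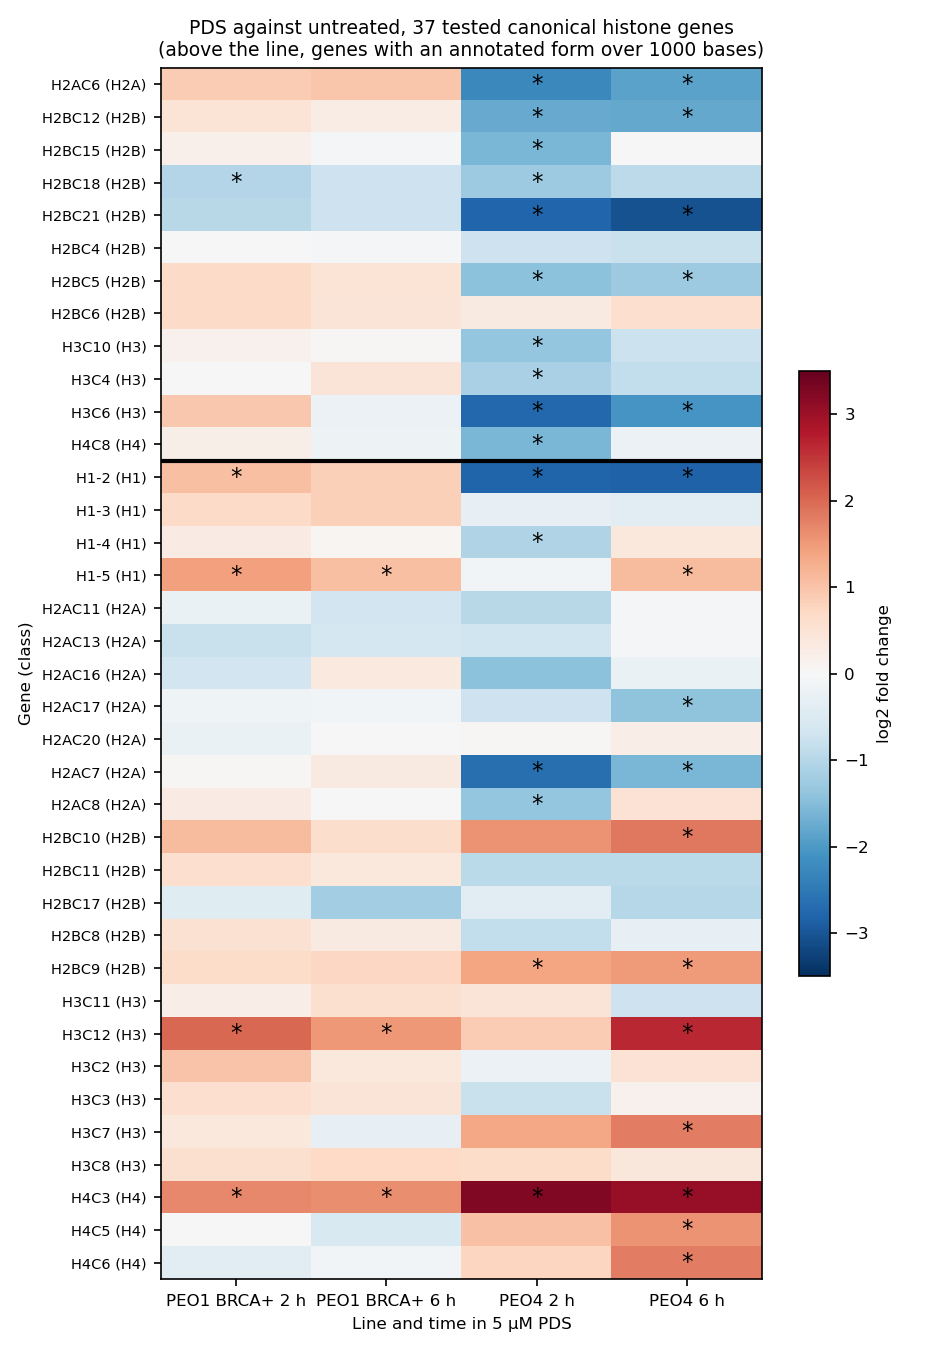
Log2 fold change over untreated cells (colour) for the 37 histone genes tested, in PEO1 BRCA+ and PEO4 at both PDS times; stars mark genes called. H1-2 is at 1.05 and 0.84 in PEO1 BRCA+ and at -2.81 and -2.82 in PEO4, and H4C3 is above 1 in all 4 columns.

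Comparing the PDS responses of the lines directly subtracts any shift that both lines share. At 2 h the response of PEO4 was lower than that of PEO1 BRCA+ in 13 of 37 genes and higher in 0, against 4.92% and 6.1% of all genes tested. The difference was -3.86 ± 0.225 for H1-2 (adjusted p = 2.9e-12), -3.16 ± 0.403 for H2AC6 (adjusted p = 1.1e-06) and -2.23 ± 0.157 for H2BC12 (adjusted p = 6.9e-11). At 6 h 8 genes were lower and 2 higher (21.6% and 5.41%), against 9.34% and 5.42%, so the share higher did not stand above the background. H1-2 was at -3.66 ± 0.227 (adjusted p = 6.9e-12) and H2BC12 at -2.06 ± 0.159 (adjusted p = 2.4e-10). H4C5 (2.12) and H3C7 (2.09, with the low untreated counts given above) were higher. The count was 8 at 2 h without untreated PEO4 replicate 1, and 6 at 6 h without untreated replicate 2 or the second 6 h library of PEO1 BRCA+. For H4C3 the difference was 1.55 ± 0.716 at 2 h (adjusted p = 0.093), so its larger rise in PEO4 did not pass the test. Between 6 h and 2 h in PEO4, 6 genes were higher and 0 lower, against 2.27% and 9.71%. These were H2AC8 (1.87), H3C12 (1.75), H2BC15 (1.63), H1-4 (1.44), H4C8 (1.37) and H1-5 (1.22). Of the 7 genes lower at 2 h and not called at 6 h, 4 were among them. These comparisons share libraries, and the share of all genes was not taken. H1-5 lost its call without the third 2 h library (0.88).

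Few genes that act on histone mRNA were called. Of 21 tested genes for processing or transcription of histone mRNA, only CTIF, a translation factor bound to the cap-binding complex, was called in any of the 10 comparisons. It fell by 1.41 in PEO4 at 6 h, and its response at 6 h differed between the lines by -1.54. SLBP differed by 0.56 between PEO4 and PEO1 of the A pair and 0.52 in the B pair, and by 0.18 to 0.31 after PDS, below the fold threshold. NPAT, the transcriptional coactivator of histone genes, lay between -0.13 and 0.05 in the comparisons with untreated cells and between the untreated lines. Of 46 genes of DNA replication and S phase, 0 were called in PEO1 BRCA+ after PDS, and in PEO4 at 6 h CDC25A (1.10) and CLSPN (1.06) were higher and 1 was lower. Their median was 0.24 at both times in PEO1 BRCA+, 0.10 at 2 h in PEO4 and 0.39 at 6 h. PCNA, the replication clamp, was lower in PEO4 than in PEO1 in the A pair (-1.37) and the B pair (-1.17), and stood at 0.54 to 0.59 after PDS in both lines. The cyclin E genes CCNE1 and CCNE2 stood at 0.90 and 0.59 in PEO4 at 6 h. Of 24 genes of G2 and mitosis, 0 were called after PDS, and their medians lay between 0.18 and 0.51. Of 22 histone chaperone genes 0 were called after PDS in either line.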

How the data were processed

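The deposited tables hold raw read counts per gene, which the authors made with FastQC, fastp, STAR and featureCounts on hg38 (per the labels); versions, annotation, strand and multimapping settings are not given in the sources used here. Table lines that could not be read (2 and 1) were left out. Genes passing filterByExpr (minimum 10, total 15) were fitted with edgeR 4.0.16 (R 4.3.3; TMM scaling, robust quasi-likelihood test, a mean per condition) over all 6 or all 18 libraries, with Benjamini-Hochberg adjustment. CPM used TMM-scaled library sizes, whereas summed levels were CPM of gene counts. The fits were tested on simulated data with known changes. Lengths and transcripts came from GENCODE, promoters from RefSeq. Other scalings, filters, DESeq2 1.42.0, a replicate block, fits to fewer libraries and, added after seeing the data, a fit without non-polyadenylated RNA were tried.

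Values in every library were given for the 12 genes with the highest mean CPM, and for each comparison up to 3 called genes per direction with mean log2 CPM of at least 0. Members, lists and rules were chosen with earlier results of these data known. Same-numbered libraries did not deviate together, so no pairing was used. Sampling noise was exceeded between all replicate libraries.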

Additional observations from a re-analysis of the deposited data

Results flagged for a closer look

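The PDS responses of PEO4 and PEO1 BRCA+ differed by the test of the difference itself (edgeR's quasi-likelihood test, Benjamini-Hochberg adjustment) for 13 histone genes at 2 h and 10 at 6 h. The values are the log2 response of PEO4 minus that of PEO1 BRCA+. At 2 h they were -3.86 for H1-2, -3.16 for H2AC6, -2.23 for H2BC12, -2.11 for H2BC5, -1.81 for H2BC21, -1.38 for H2BC8 and -1.36 for H1-4. At 6 h they were -3.66 for H1-2, -2.84 for H2AC6, -2.33 for H2BC21, -2.06 for H2BC12, -1.75 for H2BC5 and -1.31 for H3C4. H2BC8, H1-4 and H3C4 lost their calls in 8, 7 and 6 of the 12 fits that leave out 1 library, whereas H1-2, H2AC6, H2BC12, H2BC21 and H2BC5 kept theirs in all 12 at both times. Conditions had 3 libraries each, so single libraries were not tested for standing apart.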

How the results depend on the processing

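Of 451 values of named genes under other settings, 444 kept their direction and call and 7 lost the call, and of 354 values with 1 library left out, 320 kept it and 34 lost it. None reversed. Where at least 1 CPM was required in 3 libraries, fewer genes were tested, so a lower count called does not mean a lower share called. The counts called were then 3 in the untreated B pair, 3 in PEO1 BRCA+ at 2 h, 8 in PEO4 at each time, 2 between the times in PEO4, and 6 and 5 for the difference in response at 2 h and 6 h. By adjusted p alone they were 8 in the untreated B pair and 10 and 8 in PEO1 BRCA+ at 2 h and 6 h. With TMM-scaled library sizes the summed level in untreated PEO1 BRCA+ was 37.7 CPM.

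With 1 library left out, the genes called numbered 6 to 10 in the A pair, 4 to 8 in the untreated B pair, 4 to 7 and 2 to 6 in PEO1 BRCA+ at 2 h and 6 h and 0 between them. In PEO4 they numbered 11 to 19 at 2 h, 14 to 20 at 6 h and 6 to 9 between them, and for the difference in response 8 to 15 and 6 to 10. The summed levels ranged over 17.7 to 20.9 and 46.6 to 52.4 CPM in PEO1 and PEO4 of the A pair, 39.5 to 41.0, 49.7 to 51.9 and 45.5 to 48.0 in PEO1 BRCA+ (untreated, 2 h, 6 h), and 51.9 to 61.1, 23.1 to 25.6 and 28.5 to 29.8 in PEO4.

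Same-numbered libraries had correlated deviations of -0.158 to 0.134 over 48 pairs (median 0.0049), with 1 pair over 0.1, so they share only a number. With the replicate block 8 genes were called in the A pair in place of 9 and 9 in place of 10 for the difference in response at 6 h, and the other counts stayed as they were. Histone counts of 737 to 2949 per library limit the precision of the genes with low levels.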

Other observations

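Histone variants are not limited to S phase. Of 12 variant genes tested in the B pair, 4 were lower in PEO4 after 2 h and 3 after 6 h, against 11% and 16.3% of all genes tested. In PEO1 BRCA+ 0 were called after PDS. H1-10, a linker histone, fell by 1.17 and H2AX, the H2A variant phosphorylated at DNA breaks, by 1.13 at 2 h in PEO4. H3-3A, which encodes the H3.3 variant, fell by 1.47 at 6 h in PEO4. H2AX was higher in untreated PEO4 than in untreated PEO1 BRCA+ (1.15), and H3-3B, also for H3.3, was higher in PEO4 of the A pair (1.15).

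Of 224 tested genes of RNA without a poly(A) tail (ribosomal, 7SK, small nuclear and nucleolar RNA among them), 80 were lower and 8 higher in PEO1 BRCA+ after 2 h of PDS, 56 and 8 after 6 h, and in PEO4 32 and 15 after 2 h and 25 and 16 after 6 h. Of all genes tested, 6.39% were lower and 1.18% higher in PEO1 BRCA+ after 2 h, and 6.83% and 1.29% after 6 h. In PEO4 these shares were 11% and 6.4% after 2 h and 16.3% and 6.26% after 6 h. RN7SK, the 7SK RNA that holds back transcription elongation, fell by 1.67 and 1.83 in PEO1 BRCA+ and by 1.51 in PEO4 at 6 h, and stood at -0.72 in PEO4 at 2 h. The part of these values in the histone results was not tested beyond a fit without such genes, which left each histone gene count within 1.5 times its value.

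Across the 18 libraries of the B pair, the genes whose log2 CPM followed the log2 summed histone level most closely among 10495 genes compared were INPP5A (Pearson r = 0.948), KDM5C (0.904), PDLIM1 (0.900), ALDH3A2 (0.892) and PALLD (0.890). These libraries share conditions and depth, so the values are a description only.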
